A study of Mus musculus with 16 samples.

Results

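The 41 genes described here encode enzymes that add methyl groups to DNA and histones or take them off, and core partners and relatives of these enzymes. They are among 24028 genes counted in CD8 T cells sorted from mouse mammary tumours. The 41 genes are taken from the table by gene symbol, and no threshold on a measured value enters the rule. All 41 were found in the count table and all 41 passed the filter on low counts. By role or family they are 6 enzymes of DNA methylation, 4 Polycomb genes, 6 genes grouped with the methyltransferases of lysine 4 on histone H3, 6 methyltransferases of H3 lysine 36, H3 lysine 79 or H4 lysine 20, 6 of H3 lysine 9, 10 lysine demethylases and 3 arginine methyltransferases.

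The cells came from tumours of TS/A, a mouse mammary adenocarcinoma line, implanted into a mammary pad of mice of the BALB/c strain, and were sorted as live CD45.2+ CD8+ CD4- cells. Dosing began at day 7 of tumour growth and was daily, with either vehicle or 20 mg/kg of entinostat, which blocks class I histone deacetylases, and tumours were taken at day 10 or day 17. Each of the 4 groups had 4 libraries: vehicle day 10, entinostat day 10 (3 days after the first dose), vehicle day 17 and entinostat day 17 (10 days after it). No genetic change of the mice is named in the labels, every group carried the same tumour line, and the study asks how the length of treatment changes these cells. Whether the 4 libraries of each group stem from different mice is not stated in the labels, and the p-values therefore describe library-to-library spread that may be in part technical.

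Methylation of DNA is written by the DNMT enzymes and oxidised by the TET enzymes, a step towards its removal. On histones, methyl groups at H3 lysine 4 and lysine 36 are typical of active genes, while those at H3 lysine 9 and lysine 27 are typical of silent ones, and each site has its own writers and its own demethylases. In CD8 T cells, Dnmt3a, Tet2, Suv39h1 and the Polycomb enzyme Ezh2 are known from knockout studies to influence how effector, memory and exhausted cells form.

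Total counts ran from 554593 (entinostat day 17 replicate 3) to 6975904 (vehicle day 17 replicate 1) per library. Values below are CPM, counts scaled to a common library total after TMM scaling, log2 fold changes carry standard errors (SE), and adjusted p-values come from edgeR's quasi-likelihood test with Benjamini-Hochberg adjustment over 17414 genes. A gene that passed an adjusted p of 0.05 is said to rise or fall. Receptor genes of the olfactory and vomeronasal families, unused by T cells, summed to 638 to 2033 CPM with vehicle and 598 to 5615 CPM with entinostat at day 10, and to 667.5 to 5156 CPM and 3449.7 to 6349 CPM at day 17. The 7 CD8 T cell markers summed to 1905 to 3532 CPM over the 16 libraries. Markers of plasmacytoid dendritic cells, a cell type that can also carry CD8 alpha, fell with entinostat in 12 of 13 genes at each day. Their sum was 1741 to 3295 CPM with vehicle and 777 to 1319 CPM with entinostat at day 10, and 2928 to 3541 CPM against 769.7 to 1011 CPM at day 17, with no marker at 0 throughout a group. In these bulk samples, fewer cells of a type and less RNA per cell cannot be told apart, and the part of these cells in the results below was not tested.

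Setd8 (also Kmt5a), the enzyme that puts a single methyl group on lysine 20 of histone H4 and is needed for orderly chromosome replication, changed with entinostat in a way that depended on the day. With vehicle at day 10 its level was 83.1, 93.6, 91.5 and 98.1 CPM, and with entinostat at day 10 it was 35.7, 43.5, 44.1 and 56.1 CPM. All 4 entinostat libraries lay well below all 4 vehicle libraries, a log2 fold change of -1.02 ± 0.16 (adjusted p = 0.00108), which is 0.493 of the vehicle level. At day 17 the values were 69.2, 63.8, 61.8 and 40.8 CPM with vehicle and 71.7, 84.8, 69.7 and 73.6 CPM with entinostat. Here the order was turned round and the groups touched without overlapping, 69.2 against 69.7 CPM at their edges, with a log2 fold change of 0.35 ± 0.16 that missed the threshold (adjusted p = 0.138). Fitted on genes above the level of receptor reads, the same day 17 difference was 0.52 and passed. The difference between the effects at the 2 days was itself tested, and was 1.37 ± 0.23 on the log2 scale (adjusted p = 0.0161).

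Setd8 was the only one of the 41 members called for a difference of effect between the days, where 0.471% of all tested genes were. Under DESeq2 4 members were called, against 3.23% of all genes (Setd8 1.42, Whsc1 0.84, Dnmt1 0.52 and Tet2 -0.78), and the Setd8 call held in all alternatives run and without each library in turn. Seen over time, the same 4 group means moved in opposite directions, which restates that difference and adds no support to it. The level of Setd8 fell with vehicle from day 10 to day 17, by 0.63 ± 0.16 on the log2 scale (adjusted p = 0.0291), and rose with entinostat, by 0.74 ± 0.16 (adjusted p = 0.00532). The vehicle fall held in 9 of 10 alternatives and in 11 of the 16 fits without 1 library. The summed level of 22 genes of DNA replication was 1491 to 1888 CPM with vehicle and 1370 to 1699 CPM with entinostat at day 10, and 1471 to 2114 CPM against 2329 to 2883 CPM at day 17. Whether Setd8 followed these genes was not tested.

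Setd8 lies on the plus strand of chromosome 5, at 124439930 to 124462308 of GRCm38 (mm10), and none of its exons overlaps another gene. The sequences around the annotated starts of Setd8 and of 5 members that fell at day 17 (Tet2, Tet3, Kmt2d, Setd2 and Kdm2b) are shown because these calls held in all alternatives run. Kdm4b, whose fall held likewise, has no window in the RefSeq table. Each line is the RefSeq GRCm38.p6 window from 250 bases before to 50 bases after the start, 5′ to 3′ on the gene's own strand, for Setd8 at chr5:124439680-124439979 (plus strand), Tet2 at chr3:133544341-133544640 (minus strand), Tet3 at chr6:83441629-83441928 (minus strand), Kmt2d at chr15:98871156-98871455 (minus strand), Setd2 at chr9:110532347-110532646 (plus strand) and Kdm2b at chr5:122989050-122989349 (minus strand). Where RefSeq gave several windows for a gene, the most upstream was taken. The windows of Tet2, Tet3 and Kdm2b lie inside the GENCODE gene models, whose 5′ ends are at 133545139, 83459084 and 122989823. Starts further upstream were not searched. Capitals mark CCAAT on either strand (CCAAT or ATTGG), the box bound by the factor NF-Y.
Setd8: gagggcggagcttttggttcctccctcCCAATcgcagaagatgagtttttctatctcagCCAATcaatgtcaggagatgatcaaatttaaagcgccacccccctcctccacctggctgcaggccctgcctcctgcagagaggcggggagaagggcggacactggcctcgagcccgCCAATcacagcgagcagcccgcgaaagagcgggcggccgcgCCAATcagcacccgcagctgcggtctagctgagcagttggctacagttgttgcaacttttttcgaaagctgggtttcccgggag
Tet2: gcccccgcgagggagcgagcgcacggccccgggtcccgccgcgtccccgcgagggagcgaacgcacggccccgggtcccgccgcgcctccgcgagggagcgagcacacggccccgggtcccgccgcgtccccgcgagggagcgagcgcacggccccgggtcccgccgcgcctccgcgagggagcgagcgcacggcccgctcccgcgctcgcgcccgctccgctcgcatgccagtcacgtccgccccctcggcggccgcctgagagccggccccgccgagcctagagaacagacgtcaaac
Tet3: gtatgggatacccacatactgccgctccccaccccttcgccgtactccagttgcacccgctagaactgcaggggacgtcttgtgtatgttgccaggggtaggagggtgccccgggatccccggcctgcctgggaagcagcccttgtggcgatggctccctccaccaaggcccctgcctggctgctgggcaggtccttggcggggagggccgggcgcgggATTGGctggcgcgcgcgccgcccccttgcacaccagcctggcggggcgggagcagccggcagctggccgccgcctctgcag
Kmt2d: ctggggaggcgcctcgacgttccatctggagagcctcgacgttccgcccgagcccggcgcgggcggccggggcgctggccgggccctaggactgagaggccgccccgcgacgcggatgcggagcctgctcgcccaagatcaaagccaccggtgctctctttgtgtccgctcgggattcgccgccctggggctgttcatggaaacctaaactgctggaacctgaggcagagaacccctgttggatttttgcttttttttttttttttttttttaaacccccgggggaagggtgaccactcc
Setd2: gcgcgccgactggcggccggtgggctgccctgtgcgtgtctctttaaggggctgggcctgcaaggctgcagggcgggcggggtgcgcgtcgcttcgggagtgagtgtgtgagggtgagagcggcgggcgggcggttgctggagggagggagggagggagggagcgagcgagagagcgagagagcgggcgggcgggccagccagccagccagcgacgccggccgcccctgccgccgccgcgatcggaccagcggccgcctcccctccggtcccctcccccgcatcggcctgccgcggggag
Kdm2b: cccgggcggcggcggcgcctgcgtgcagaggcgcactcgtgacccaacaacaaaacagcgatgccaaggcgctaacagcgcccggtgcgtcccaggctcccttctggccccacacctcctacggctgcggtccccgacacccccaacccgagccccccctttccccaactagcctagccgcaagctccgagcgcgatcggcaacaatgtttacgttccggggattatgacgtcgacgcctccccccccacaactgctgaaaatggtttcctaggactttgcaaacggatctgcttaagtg
The Setd8 window held 4 CCAAT boxes, Tet3 held 1, and Tet2, Kmt2d, Setd2 and Kdm2b held 0. A count of 4 was not particular to Setd8. Of members not shown, Dnmt1 held 5, Prmt5 held 4, Ezh2 and Prmt1 held 3 each, and Tet1 held 0. CCAAT is common, present at least once in 38% of the 27025 RefSeq windows of this length, and in 13 of the 30 members that have one. The E2F words TTTCGCGC, TTTGGCGC, TTTCCCGC and TTTGCCGC, searched on both strands and none of them holding CCAAT, were in 2.33% of windows and in none of the 6 shown. Among members they were found in Ezh2 and Suz12. A match is a description of letters, and their absence from a window says nothing about a factor.

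**Figure D1:**
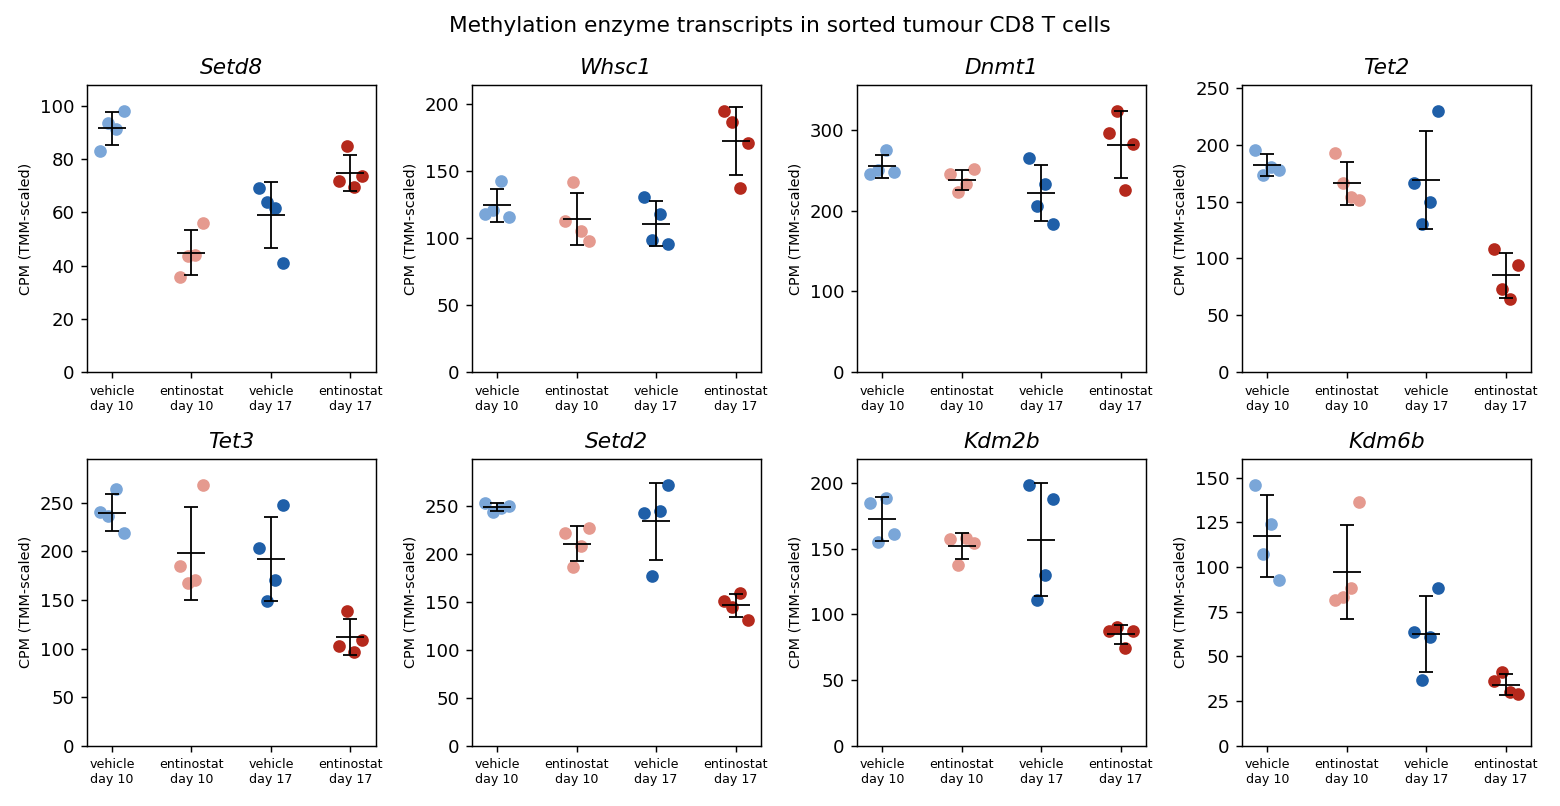
Normalised level (CPM, linear axis from 0) of 8 members in each of the 16 libraries by group, with points for libraries and bars for the mean ± SD of 4. Setd8 is lowest with entinostat at day 10, Tet2, Tet3, Setd2 and Kdm2b are lowest with entinostat at day 17, Whsc1 is highest there, and Kdm6b is lower at day 17 than at day 10.

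Across all members, 6 were called for entinostat at day 10 and 21 at day 17, while only Setd8 was called for a difference of effect between the days. At day 10 no member rose and 6 fell (Setd8, Kdm2a, Kdm3a, Dnmt3a, Setd7 and Dot1l), where 14.6% of all tested genes were called, 7.63% higher and 6.93% lower. The count of 6 of 41 is near that background, and only Setd8 and Kdm2a held in all alternatives run and without each library in turn. With the replicate number as a block, 3 members were called (8.96% of all genes), and 2 with a block for each number within each day (6.66%). Setd8 and Kdm2a kept their calls under both blocks. At day 17 5 members rose (Tet1, Suv39h2, Whsc1, Dnmt3b and Dnmt1) and 16 fell, where 18.3% of all tested genes were called, 5.29% higher and 13% lower. Libraries of the 2 treatments did not overlap for 5 members higher and 12 lower at day 17, against 10.8% and 13.6% of all genes.

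The split at day 17 depended on the scaling. In the main fit the median log2 fold change was -0.33 for the 41 members and -0.01 for all tested genes, but -0.17 for the 11990 genes above the level of receptor reads, so the members lay closer to other expressed genes than to the whole table. The fit on those 11990 genes alone was scaled anew on them, which put their median at -0.00012 at day 17. In that fit 7 members rose and 6 fell (20.9% of genes called, 8.54% higher and 12.4% lower), and at day 10 Dnmt3b and Kdm5b rose while Setd8 and Kdm2a fell (11.9% of genes called). Members called in the same direction in all alternatives run and without each library were Tet2, Tet3, Kmt2d, Setd2, Kdm2b and Kdm4b, lower, and Whsc1 and Tet1, higher. Leaving out 1 library gave between 9 and 21 calls: 9, 12 and 13 after omission of entinostat day 17 replicates 4, 3 (the shallow library) and 1, and 11 after omission of vehicle day 17 replicate 1 or 3. For day 10 the count was 2 after omission of any 1 of vehicle replicates 1 to 3 or entinostat replicates 1 to 3 of that day, of vehicle day 17 replicate 3 or of entinostat day 17 replicate 1, and 3 after that of entinostat day 17 replicate 4.

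**Figure D2:**
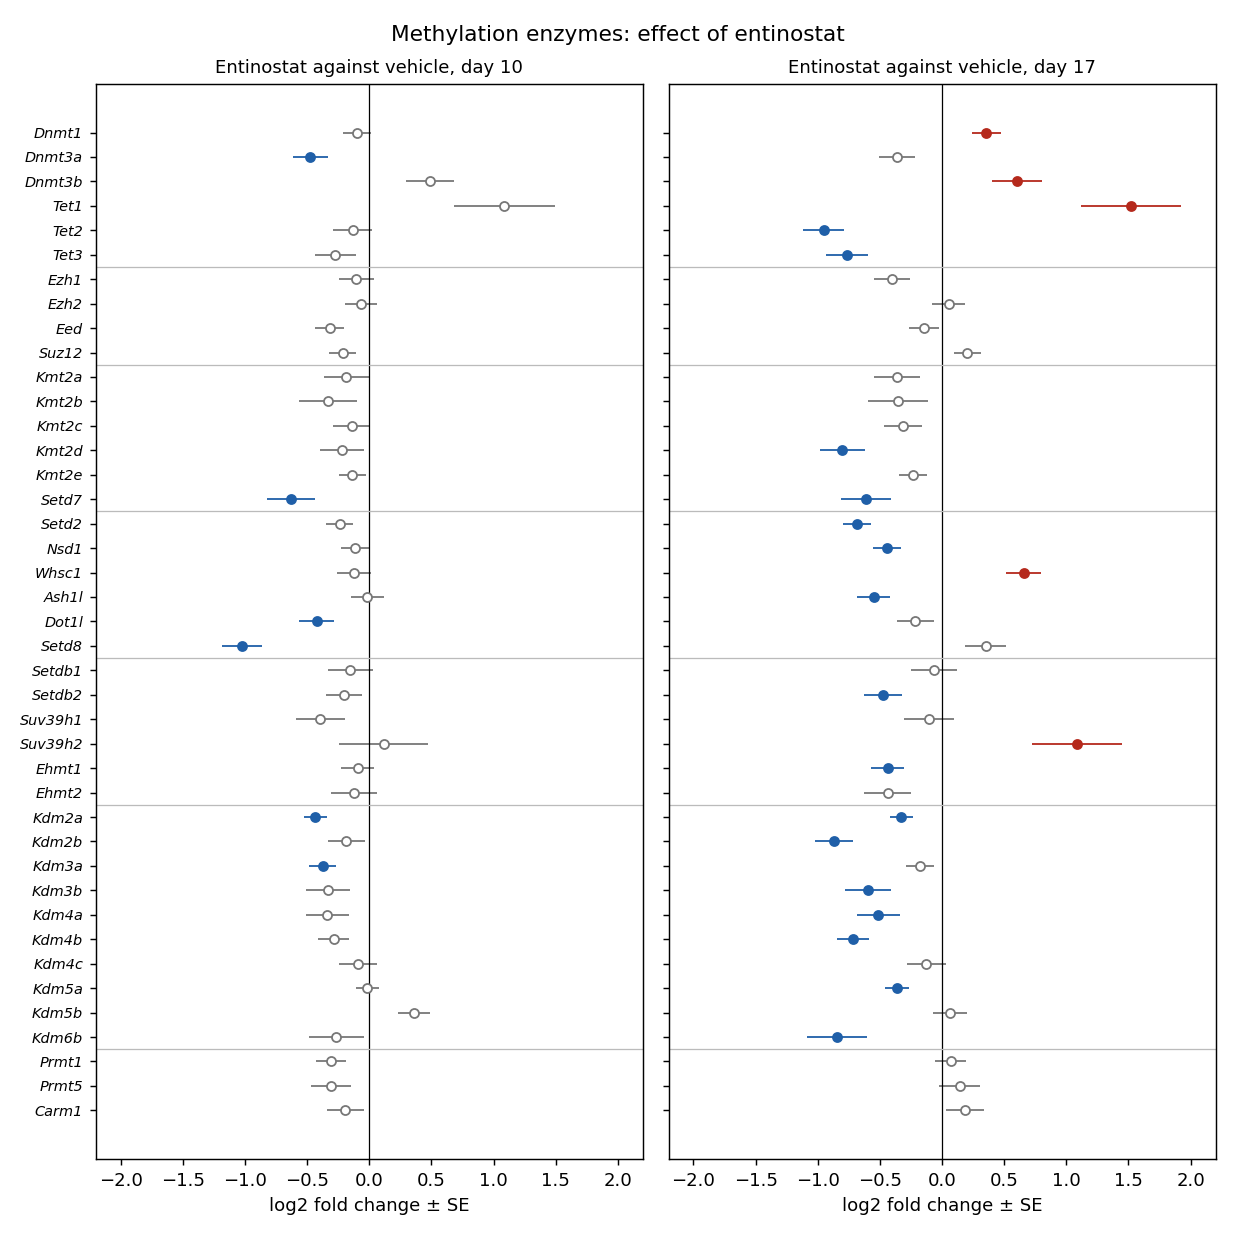
Log2 fold change of entinostat over vehicle with its SE for each of the 41 members at day 10 and at day 17, with members grouped by role and filled points past the adjusted p of 0.05 (red higher, blue lower). Most lysine demethylases lie to the left of 0 at day 17, and Setd8 stands furthest to the left at day 10.

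Among the enzymes of DNA methylation, the 2 more abundant TET genes fell at day 17. Tet2, a dioxygenase that oxidises 5-methylcytosine and whose loss is known to alter memory formation in CD8 T cells, was at 166, 130, 150 and 230 CPM with vehicle and 108, 73.2, 64.7 and 94.0 CPM with entinostat. All entinostat libraries lay below the lowest vehicle library, with a log2 fold change of -0.95 ± 0.16 (adjusted p = 0.00062), or 0.517 of the vehicle level. At day 10 Tet2 differed by -0.13 ± 0.16 (adjusted p = 0.557), a sign that turned to 0.03 with library size alone, and the difference between the days was -0.82 ± 0.23 (adjusted p = 0.119), so a change of effect between the days was not shown in the main fit.

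Tet3, the TET enzyme with the higher level per length in these cells, behaved similarly. It was at 203, 148, 170 and 247 CPM with vehicle and 103, 138, 96.2 and 109 CPM with entinostat at day 17, again without overlap (log2 fold change -0.77 ± 0.17, adjusted p = 0.00461). At day 10 the entinostat libraries spread from 167 to 268 CPM across the vehicle range of 219 to 264 CPM, a difference of -0.27 ± 0.16 (adjusted p = 0.242). Tet2 shares 43 exon bases with an antisense gene and Tet3 none, a point that bears on Tet2 only because the library kit does not mark strand.

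Tet1, the lowest member per length in every group except entinostat at day 17, moved the other way. Its level was 23.5, 40.2, 13.4 and 37.7 CPM with vehicle and 80.7, 41.2, 119 and 93.3 CPM with entinostat at day 17 (log2 fold change 1.52 ± 0.40, adjusted p = 0.0139), and all entinostat libraries were higher, 41.2 against 40.2 CPM at the edges of the groups. At day 10 it was 10.7 to 24.9 CPM with vehicle and 19.5 to 54.3 CPM with entinostat, which overlapped (1.09 ± 0.41, adjusted p = 0.0749). Receptor reads moved in the same direction between the groups, and per kilobase of exon the level of Tet1 was as little as 1.52 times that of receptor genes in a library. With the share of receptor reads as a covariate the Tet1 difference was 1.28 at day 17 (adjusted p = 0.0363) and 0.72 at day 10 (adjusted p = 0.290).

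**Figure D3:**
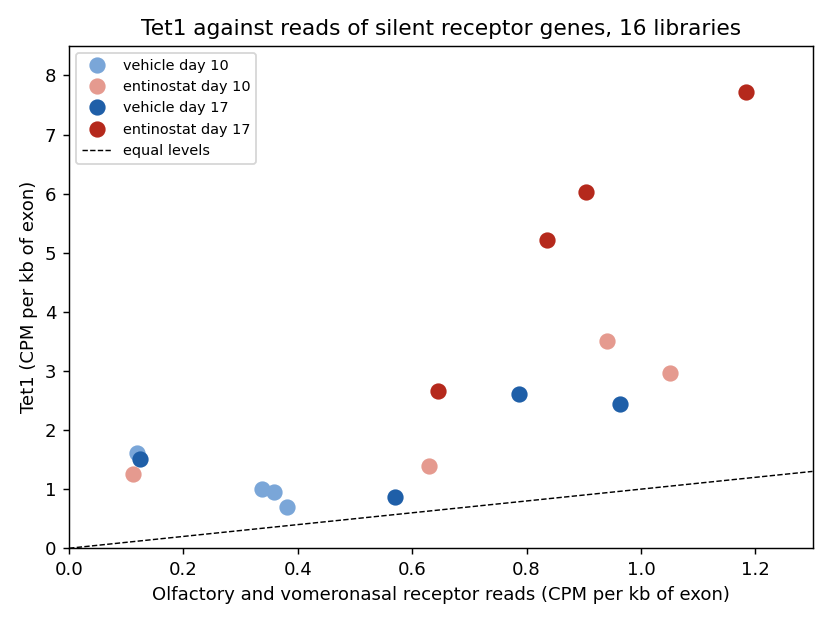
Tet1 level against the mean level of olfactory and vomeronasal receptor genes, both in CPM per kilobase of exon, in each of the 16 libraries, coloured by group, with a dashed line of equal levels. Libraries with more receptor reads tend to have more Tet1, and 3 of the 4 entinostat day 17 libraries lie at the upper right, while replicate 2 of that group, at 2.67 CPM per kilobase of Tet1, lies among libraries of other groups.

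Of the DNA methyltransferases, Dnmt3a fell at day 10, and Dnmt1 and Dnmt3b rose at day 17. Dnmt1, which copies methylation onto the new strand after replication, was at 265, 205, 233 and 184 CPM with vehicle and 296, 324, 226 and 283 CPM with entinostat at day 17. The groups overlapped, through replicate 3 of entinostat (226 CPM), and the rise of 0.36 ± 0.12 passed the threshold narrowly (adjusted p = 0.0383). At day 10 Dnmt1 differed by -0.10 ± 0.11 (adjusted p = 0.559), with a sign that turned under some scalings. Dnmt3a, a de novo methyltransferase, fell at day 10 from 172 ± 21.1 to 124 ± 1.62 CPM (SD, n = 4), by 0.48 ± 0.14 on the log2 scale (adjusted p = 0.0348, but 0.0579 with the replicate block and 0.0915 with the block within each day), and differed by -0.36 ± 0.15 at day 17 (adjusted p = 0.0876). Dnmt3b, the other de novo enzyme, was the least abundant of the 3 and rose at day 17 from 24.0 ± 2.70 to 36 ± 6.36 CPM (0.60 ± 0.20, adjusted p = 0.0416). Its difference at day 10 was 0.49 ± 0.19 (adjusted p = 0.0874), which passed in the fits on genes above receptor reads (0.60) and by DESeq2 (0.55). The calls of Dnmt1, Dnmt3a and Dnmt3b were each lost in some alternative.

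Of the genes of Polycomb repressive complex 2, which methylates H3 lysine 27, none was called for entinostat at either day. Of all tested genes 14.6% were called at day 10 and 18.3% at day 17, and none of 4 is near those shares. Ezh2, its catalytic subunit in dividing cells, was at 70.4 to 98.4 CPM with vehicle and 67.7 to 97.6 CPM with entinostat at day 10, and at 70.9 to 92.4 and 81.4 to 91.2 CPM at day 17. All 4 ranges overlapped, and the log2 fold change was -0.07 ± 0.13 at day 10 (adjusted p = 0.740) and 0.05 ± 0.13 at day 17 (adjusted p = 0.805), the first of which changed sign with the scaling. Ezh1, the other catalytic subunit, differed by -0.40 ± 0.14 at day 17 (adjusted p = 0.0588) and by -0.11 ± 0.14 at day 10 (adjusted p = 0.608), which also changed sign with the scaling. The core subunits Eed and Suz12 differed by -0.15 ± 0.12 and 0.20 ± 0.11 at day 17 (adjusted p = 0.409 and 0.204) and by -0.32 ± 0.12 and -0.21 ± 0.11 at day 10 (adjusted p = 0.0683 and 0.170), and the sign for Eed at day 17 turned with the scaling. Suz12 was called higher at day 17 in 5 of the 11 alternatives, with 0.37 in the fit on genes above receptor reads and 0.32 by DESeq2.

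Of the genes grouped with the methyltransferases of H3 lysine 4, a mark of promoters and enhancers, Kmt2d and Setd7 fell at day 17. The grouping is by name or family, and the activity of each protein was not measured. Kmt2d, an enhancer methyltransferase and the member with the most counts in both vehicle groups, was at 389, 334, 324 and 585 CPM with vehicle and 205, 314, 196 and 209 CPM with entinostat. The groups did not overlap, with replicate 2 of entinostat at 314 CPM next to the lowest vehicle library at 324 CPM, and the log2 fold change was -0.80 ± 0.18 (adjusted p = 0.00555). At day 10 Kmt2d differed by -0.22 ± 0.18 (adjusted p = 0.397). Setd7, a small methyltransferase that also modifies proteins other than histones, fell at both days, by 0.63 ± 0.19 (adjusted p = 0.0399) and 0.61 ± 0.20 (adjusted p = 0.0410), from 44.3 ± 7.14 to 28.5 ± 5.34 CPM and from 38.6 ± 4.28 to 24.8 ± 3.60 CPM (SD, n = 4). Both calls were lost in the fit on genes above receptor reads, the day 10 call also with the replicate block (adjusted p = 0.0514) and with the block within each day (0.0726), and the level of Setd7 per kilobase came as near as 1.55 times that of receptor genes. Of 11 alternatives the day 10 call held in 3 and the day 17 call in 4. Each held in 3 of the 16 fits without 1 library. The other 4 (Kmt2a, Kmt2b, Kmt2c and Kmt2e) were not called for entinostat, with differences from -0.37 to -0.14 over both days, and at day 10 the signs of Kmt2c and Kmt2e turned in some alternative.

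A pair of writers of H3 lysine 36 methylation moved in opposite directions at day 17. Setd2, which makes the trimethyl mark along transcribed genes, was at 242, 177, 244 and 272 CPM with vehicle and 151, 145, 159 and 131 CPM with entinostat. No library overlapped and the log2 fold change was -0.68 ± 0.12 (adjusted p = 0.000514), the smallest p of the members at that day. Whsc1 (Nsd2), which makes the dimethyl mark, was at 131, 98.5, 118 and 95.3 CPM with vehicle and 195, 187, 138 and 171 CPM with entinostat. Every entinostat library was above every vehicle library, a log2 fold change of 0.66 ± 0.14 (adjusted p = 0.00313), and 60 bases of its exons are shared with Nelfa on the opposite strand. At day 10 neither was called (Setd2 -0.24 ± 0.11, adjusted p = 0.142; Whsc1 -0.12 ± 0.14, adjusted p = 0.544), and the sign of Whsc1 turned in some alternative.

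Nsd1 and Ash1l, the remaining writers of lysine 36 methylation in the list, fell at day 17, Nsd1 by 0.44 ± 0.12 (adjusted p = 0.0135) and Ash1l by 0.55 ± 0.13 (adjusted p = 0.00880), and the groups did not overlap for either. Ash1l was at 174 ± 35.1 CPM with vehicle and 120 ± 15.8 CPM with entinostat (SD, n = 4), and its exons share 352 bases with Dap3 on the opposite strand. Both calls were lost in the fit on genes above receptor reads, and of 11 alternatives the Nsd1 call held in 5 and the Ash1l call in 7. At day 10 Nsd1 and Ash1l differed by -0.11 ± 0.11 and -0.01 ± 0.13 (adjusted p = 0.489 and 0.941), signs that turned in some alternative. Dot1l, the methyltransferase of H3 lysine 79, fell at day 10 from 120 ± 19.9 to 89.5 ± 4.26 CPM, with an adjusted p of 0.0499 on the edge of the threshold (-0.42 ± 0.14), and the call was lost in 10 of 11 alternatives, among them the replicate block (adjusted p = 0.0847) and the block within each day (0.0925). Dot1l differed by -0.21 ± 0.15 at day 17 (adjusted p = 0.320).

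The methyltransferases of H3 lysine 9, the mark of constitutive heterochromatin and of silenced repeats, gave 3 calls among 6 at day 17 and none at day 10, where 18.3% and 14.6% of all tested genes were called. Suv39h2 rose from 10.8 ± 3.72 to 23.5 ± 6.76 CPM (1.08 ± 0.36, adjusted p = 0.0446). Its level per length was the second lowest of the members in every group except entinostat at day 17, as near as 1.61 times that of receptor genes, and shares 357 exon bases with Dclre1c on the opposite strand, and with the receptor share as a covariate its adjusted p was 0.0544. Its relative Suv39h1, which is more abundant in these cells, differed by -0.10 ± 0.20 (adjusted p = 0.748), with a sign that turned in some alternative. Ehmt1, a partner in the complex that dimethylates lysine 9, fell by 0.44 ± 0.13 (adjusted p = 0.0303), and Setdb2 by 0.48 ± 0.15 (adjusted p = 0.0357), both lost in the fit on genes above receptor reads. Of 11 alternatives the Ehmt1 call held in 3 and the Setdb2 call in 2, and each held in 7 of the 16 fits without 1 library. At day 10 Ehmt1 differed by -0.09 ± 0.13 and Setdb2 by -0.21 ± 0.15. Ehmt2 (-0.44 ± 0.19, adjusted p = 0.112) and Setdb1 (-0.06 ± 0.18, adjusted p = 0.838) were not called, and the sign of Setdb1 turned in some alternative.

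The lysine demethylases gave 7 falls and no rise among 10 at day 17, beside 13% lower and 5.29% higher of all tested genes, of which those of Kdm2b and Kdm4b remained in the fit on genes above receptor reads. Kdm2b, a demethylase of H3 lysine 36 that also brings Polycomb complexes to CpG islands, was at 199, 111, 130 and 188 CPM with vehicle and 87.1, 90.7, 74.7 and 87.2 CPM with entinostat. No library overlapped, and the log2 fold change was -0.87 ± 0.15 (adjusted p = 0.000786). Its exons share 627 bases with Rnf34 on the opposite strand, whose reads cannot be told apart there. Kdm4b, a demethylase of H3 lysine 9, was at 185, 133, 158 and 116 CPM with vehicle and 87.1, 96.1, 96.2 and 83.8 CPM with entinostat, again without overlap (-0.72 ± 0.13, adjusted p = 0.000949). At day 10 Kdm4b differed by -0.29 ± 0.12 (adjusted p = 0.115), with all entinostat libraries below all vehicle libraries. Kdm2b differed there by -0.18 ± 0.15 (adjusted p = 0.383), and a change of effect between the days was not shown for either gene. In the order of levels per length with vehicle at day 10, Kdm4b stood at the top of the members, at 37.5 ± 1.62 CPM per kilobase (SD, n = 4).

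Kdm6b (Jmjd3), a demethylase of H3 lysine 27 that is induced by activation and inflammation, was at 63.9, 36.8, 60.7 and 88.5 CPM with vehicle and 36, 41.5, 29.9 and 28.8 CPM with entinostat at day 17. The lowest vehicle library lay inside the entinostat range, and the fall of 0.84 ± 0.24 (adjusted p = 0.0214) was lost in the fit on genes above receptor reads (-0.69, adjusted p = 0.0529). Kdm5a, a demethylase of H3 lysine 4, fell by 0.36 ± 0.09 (adjusted p = 0.0125), Kdm3b by 0.59 ± 0.18 (adjusted p = 0.0321) and Kdm4a by 0.51 ± 0.17 (adjusted p = 0.0489), and these 3 calls were lost in that fit too. Of 11 alternatives the call held in 6 for Kdm5a, 3 for Kdm3b and 2 for Kdm4a. Of the 16 fits without 1 library it held in 12, 8 and 3. Kdm3b shares 3468 exon bases with an antisense transcript, so its counts are uncertain. At day 10 Kdm6b differed by -0.27 ± 0.22, Kdm3b by -0.33 ± 0.18, Kdm4a by -0.34 ± 0.17 and Kdm5a by -0.02 ± 0.09. None of these was called, the sign of Kdm5a turned in some alternative, and no change of effect between the days was shown.

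Kdm2a, a relative of Kdm2b, fell at both days. At day 10 it was at 270, 278, 298 and 261 CPM with vehicle and 194, 206, 201 and 217 CPM with entinostat, 2 tight groups that lay far apart (-0.43 ± 0.09, adjusted p = 0.00718). At day 17 it fell by 0.33 ± 0.09 (adjusted p = 0.0206), a call lost in the fit on genes above receptor reads and held in 3 of 11 alternatives. Kdm3a, a demethylase of H3 lysine 9, fell at day 10 by 0.37 ± 0.11 (adjusted p = 0.0325, 0.0487 with the replicate block, but 0.0792 with the block within each day), a call lost in 7 of 11 alternatives, and differed by -0.18 ± 0.11 at day 17 (adjusted p = 0.273). Kdm5b, a demethylase of H3 lysine 4, ran against the others at day 10, at 215 to 263 CPM with entinostat and 147 to 201 CPM with vehicle (0.36 ± 0.13, adjusted p = 0.0719), and was called higher, with 0.48, in the fit on genes above receptor reads. Kdm4c was not called, at -0.09 ± 0.15 and -0.13 ± 0.16 (adjusted p = 0.691 and 0.607), and both signs turned in some alternative.

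The arginine methyltransferases Prmt1, Prmt5 and Carm1, which modify histones and many RNA-binding proteins, were not called in any comparison. Depending on the comparison, 0.471% to 18.3% of all tested genes were called, so none of these few is near those shares. Their differences with entinostat were -0.31 ± 0.12, -0.31 ± 0.16 and -0.19 ± 0.15 at day 10 and 0.07 ± 0.12, 0.14 ± 0.16 and 0.18 ± 0.15 at day 17. Their levels lay between 54.7 and 116 CPM over the 16 libraries.

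Between the days, the members mostly moved down in the main fit, and more of them were called with entinostat than with vehicle. Their median log2 fold change was -0.23 with vehicle and -0.36 with entinostat, beside -0.04 and -0.11 for genes above receptor reads. With library size alone the medians of those genes were 0.09 and 0.02. The sign turned in some alternative for 12 members with vehicle and 1 with entinostat. The 2 time comparisons share no library with each other, but whether a gene differs between them is given only by the test of the difference, where Setd8 alone passed. With vehicle 0 members rose and 6 fell (Suz12, Eed, Dot1l, Setd8, Kdm6b and Kdm3a), where 5.52% of all tested genes were called, 1.89% higher and 3.63% lower. With entinostat 3 rose (Setd8, Whsc1 and Tet1) and 15 fell, where 13.7% were called, 3.26% higher and 10.5% lower. None of the 6 vehicle calls held without each library in turn: after omission of 1 vehicle library the count was 0 (day 10 replicate 3), 1 (day 17 replicate 2), 3 (day 10 replicate 2 or day 17 replicate 3) or 12 (day 17 replicate 1). Of the 18 entinostat calls, 12 held in all alternatives run and without each library, and 7 rose and 12 fell in the fit on genes above receptor reads (19.5% of genes called).

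**Figure D4:**
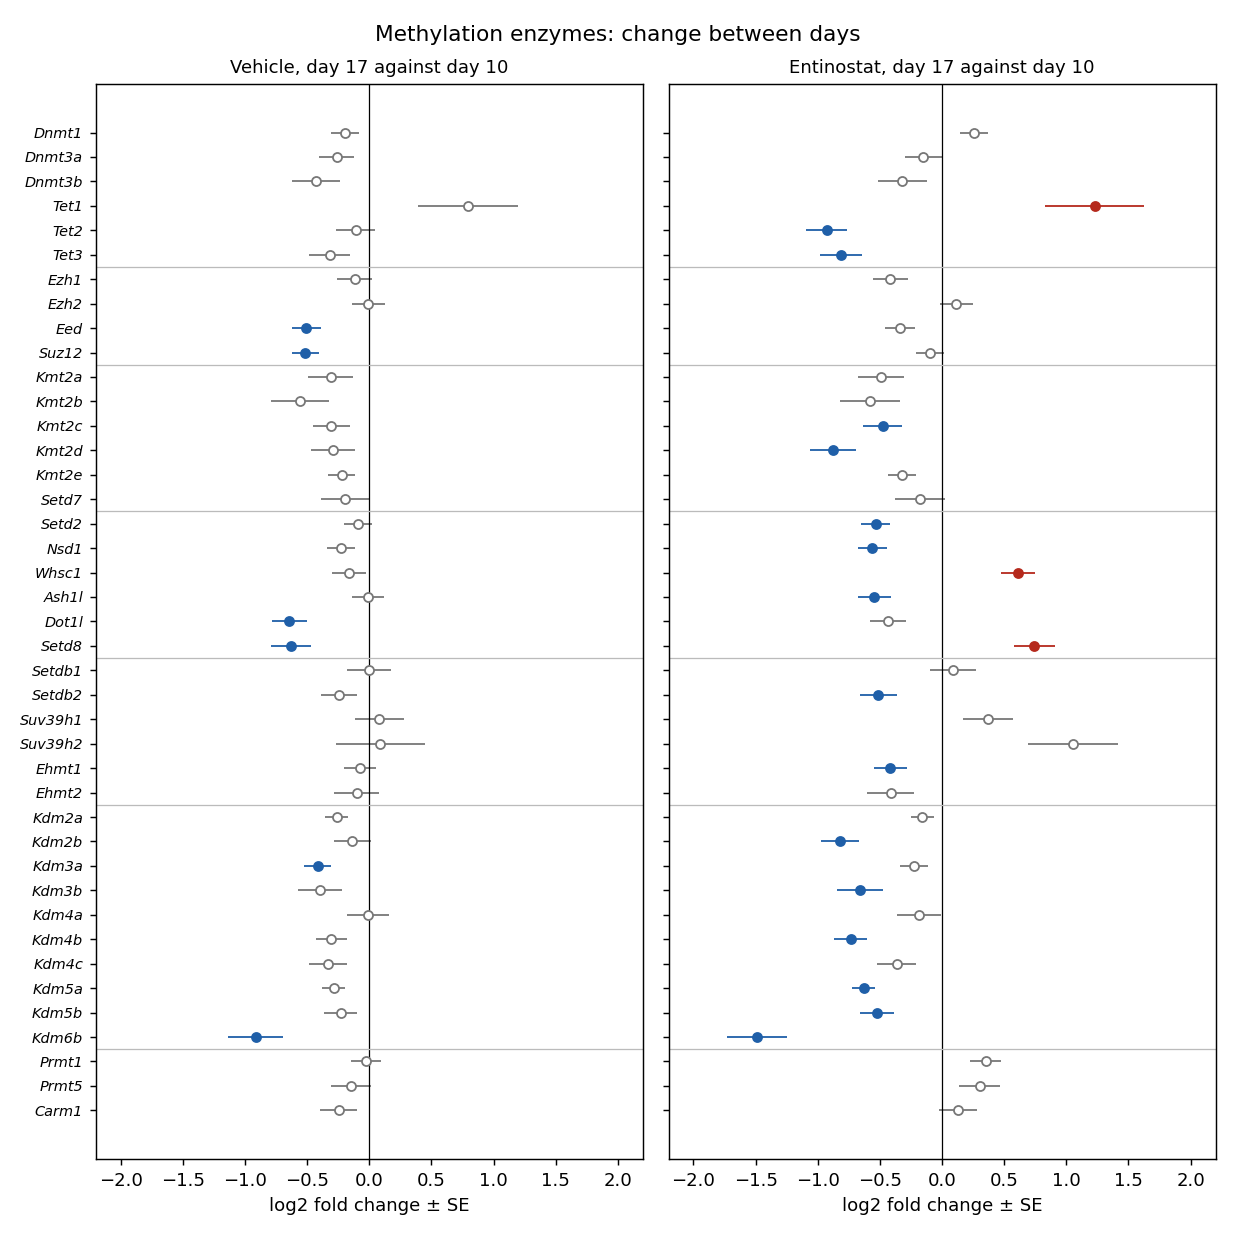
Log2 fold change of day 17 over day 10 with its SE for each of the 41 members, with vehicle and with entinostat, grouped by role and filled past the adjusted p of 0.05 (red higher, blue lower). With entinostat 15 members are filled below 0 and 3 above, and Kdm6b lies furthest to the left in both columns.

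Kdm6b showed the largest fall of any member in each time comparison. With vehicle it went from 146, 108, 124 and 92.6 CPM at day 10 to 63.9, 36.8, 60.7 and 88.5 CPM at day 17, and with entinostat from 81.4, 83.1, 88.2 and 136 CPM to 36, 41.5, 29.9 and 28.8 CPM. Neither pair of groups overlapped, and the log2 fold changes were -0.92 ± 0.22 (adjusted p = 0.0265) and -1.49 ± 0.24 (adjusted p = 0.00045). An antisense gene shares 286 bases of its exons. The difference between the 2 falls was -0.58 ± 0.33 (adjusted p = 0.480).

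The Polycomb subunits Suz12 and Eed fell over time with vehicle. Suz12 went from 182 ± 20.1 to 127 ± 14.1 CPM (-0.52 ± 0.11, adjusted p = 0.0126) and Eed from 142 ± 11.7 to 99.9 ± 17.7 CPM (-0.51 ± 0.12, adjusted p = 0.0194), each without overlap of libraries. With entinostat they differed by -0.10 ± 0.11 (adjusted p = 0.625), a sign that turned in some alternative, and -0.34 ± 0.12 (adjusted p = 0.0721). Dot1l fell by 0.64 ± 0.14 with vehicle (adjusted p = 0.0159) and Kdm3a by 0.42 ± 0.11 (adjusted p = 0.0352).

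With entinostat, Tet2, Tet3, Kmt2d, Setd2 and several demethylases fell between the days. The entinostat day 17 libraries enter this comparison and the one with vehicle at day 17, so the 2 are not independent. Tet2 fell over time by 0.93 ± 0.16 (adjusted p = 0.0010), Tet3 by 0.81 ± 0.17 (adjusted p = 0.00372), Kmt2d by 0.88 ± 0.18 (adjusted p = 0.00365) and Setd2 by 0.53 ± 0.12 (adjusted p = 0.00459). Among the demethylases, Kdm2b fell by 0.82 ± 0.15 (adjusted p = 0.00165), Kdm4b by 0.74 ± 0.13 (adjusted p = 0.000966), Kdm5a by 0.63 ± 0.09 (adjusted p = 0.000231), Kdm5b by 0.52 ± 0.14 (adjusted p = 0.0152) and Kdm3b by 0.66 ± 0.18 (adjusted p = 0.0228). Nsd1, Ash1l, Setdb2, Kmt2c and Ehmt1 fell by between 0.42 and 0.56, with adjusted p from 0.00342 to 0.0468. Whsc1 rose by 0.61 ± 0.14 (adjusted p = 0.00626) and Tet1 by 1.23 ± 0.40 (adjusted p = 0.0472), the latter not with the receptor share as a covariate (1.06, adjusted p = 0.0792).

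Compared per length of exon, the members spanned a wide range of levels. With vehicle at day 10, Kdm4b (37.5 ± 1.62 CPM per kilobase; SD, n = 4), Eed (37.2 ± 3.07), Suz12 (36.8 ± 4.06), Dnmt1 (34.5 ± 1.89) and Kmt2e (33.0 ± 1.74) stood highest, and neighbours among these 5 did not differ beyond their spread. At the low end were Tet1 (1.06 ± 0.388 CPM per kilobase), Suv39h2 (2.31 ± 0.516), Setd7 (4.09 ± 0.661) and Dnmt3b (6.35 ± 0.805). Among the TET genes the order was Tet3 (14.4 ± 1.12), Tet2 (10.8 ± 0.572) and Tet1, and the spreads of the 3 did not meet. With entinostat at day 17 the levels of Tet3 (6.68 ± 1.11), Tet1 (5.41 ± 2.11) and Tet2 (5.04 ± 1.17) were within their spreads of each other.

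Other enzymes of the same families, 29 tested of a list of 31, gave no rise and 8 falls with entinostat at day 17, with a median log2 fold change of -0.28 beside -0.17 for all genes above receptor reads. Of all tested genes 5.29% rose and 13% fell there. The 4 of smallest p were Kdm6a, the X-linked demethylase of H3 lysine 27 (-0.63 ± 0.10, adjusted p = 0.000467), Jmjd1c (-0.57 ± 0.11, adjusted p = 0.00200), Kdm1b, a demethylase of H3 lysine 4 (-0.75 ± 0.15, adjusted p = 0.00228), and Suv420h1, which adds further methyl groups to the mark that Setd8 makes (-0.62 ± 0.13, adjusted p = 0.00379). At day 10 Suv420h1 (-0.57 ± 0.13, adjusted p = 0.0103) and Prmt3 (-0.48 ± 0.16, adjusted p = 0.0498) fell and none rose. Over time 3 of the 29 fell with vehicle, where 3.63% of all tested genes did, and 1 rose and 11 fell with entinostat, where 3.26% and 10.5% did.

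Cofactors, readers and genes of methyl donor supply, 40 genes, gave 2 rises and 5 falls with entinostat at day 17, near the 5.29% and 13% of all tested genes. Uhrf1, which brings Dnmt1 to newly replicated DNA, rose by 0.76 ± 0.18 (adjusted p = 0.00589). Phf1, a Polycomb accessory protein, fell by 0.74 ± 0.13 (adjusted p = 0.000846), Cbx7, a reader of H3 lysine 27 methylation, by 0.91 ± 0.22 (adjusted p = 0.00892) and the Polycomb RING partner Pcgf5 by 0.65 (adjusted p = 0.0100). At day 10 Mbd3 (-0.70 ± 0.11, adjusted p = 0.00105) and Ash2l (-0.39 ± 0.11, adjusted p = 0.0273) fell and none rose. Cbx7 was the only gene of this list with a called difference between the days, -1.48 ± 0.31 (adjusted p = 0.0428). Genes of DNA replication, given beside Dnmt1 and Uhrf1, rose in 12 of 22 with entinostat at day 17 (median 0.60) and in none at day 10, and 4 of 20 mitosis genes rose at day 17. Of all tested genes 7.63% rose and 6.93% fell with entinostat at day 10.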

How the data were processed

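Whole-number counts per gene were deposited by the authors for 24028 genes in 16 libraries, not scaled between libraries, from full-length cDNA (SMART-seq v4) tagmented with Nextera XT, per the labels' protocols. The submitters' processing notes name STAR and mm10, while the program that counted reads and its gene models were not given there or in the labels. The kit marks neither strand nor single molecules, so overlapping antisense genes cannot be separated and the counting error covers reads, not molecules. Totals of 554593 to 6975904 counts set the precision, which is lowest for entinostat day 17 replicate 3.

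Groups, days and replicate numbers came from the labels. Genes kept by filterByExpr (minimum count 10), 17414 in all, were tested with edgeR 4.0.16 under R 4.3.3 (quasi-likelihood, TMM, 1 mean per group over 16 libraries, 12 residual degrees of freedom, Benjamini-Hochberg per comparison at 0.05). SDs are over 4 libraries of a group. Exon lengths and positions came from GENCODE M21 on GRCm38 (all 41 members matched), and promoter windows from RefSeq GRCm38.p6 (30 of 41 matched). The results were refitted with DESeq2 1.42.0, with limma 3.58.1 (voom, weighting libraries by quality), with RLE scaling or none beyond library size, without the filter or at a minimum count of 50, on only the genes above the 95th percentile of olfactory and vomeronasal receptor genes (7.37 CPM, 11990 genes), on only the groups compared, with replicate blocks, with the share of receptor reads as a covariate, and without each library. The fitting code was tested on simulated counts, with changes at day 17 placed in genes drawn at random from all tested. There edgeR recovered 16.4% of 1.5-fold, 40.3% of 2-fold and 59.1% of 4-fold changes, with 3 false calls. These rates cover tested genes of every level, and rates at the levels of the members were not computed. A gene that is not called may therefore still differ.

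Pairing of libraries by replicate number was checked over 9772 genes of at least 16 CPM, by correlating how same-numbered libraries departed from their group means. Between the treatments at day 10 the correlation was 0.259, 0.259, 0.241 and 0.271. The same-numbered library was the best match in both directions for replicates 1, 2 and 4 but not for replicate 3. The labels give no pairing, and these values do not establish one. The day 10 values printed are from the fit without the block, and blocked values stand beside the counts and beside each call that a block ended. Over all tested genes the same correlations were 0.18, 0.03, 0.11 and 0.06, with the best match in both directions for replicate 1 alone. Over the genes of at least 16 CPM, no other comparison had all 4 above 0.1. Over all tested genes no comparison did, day 10 included. No library was a repeat of another of its group within counting noise.

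The members, the other gene lists and the rule for naming genes were chosen with earlier results of these data known. Values are given for every member called in some comparison and for the DNA methylation enzymes, the Polycomb genes and Kdm6b in any case, and other pathway genes are named by smallest p, up to 4 per list and comparison.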

Additional observations from a re-analysis of the deposited data

Results flagged for a closer look

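Setd8 stood out because its entinostat effects at the 2 days differed by the test of the difference itself, by 1.37 ± 0.23 on the log2 scale (edgeR's quasi-likelihood test, adjusted p = 0.0161): lower in 4 of 4 entinostat libraries at day 10 and higher in 4 of 4 at day 17. The day 17 difference alone missed the threshold (0.35 ± 0.16, adjusted p = 0.138), with 69.2 against 69.7 CPM at the edges of the groups. Such upward lack of overlap at day 17 was seen in 10.8% of all tested genes.

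In 9 of the 124 sets of 4 libraries examined for 31 members, 1 library lay apart from the other 3 by Dixon's criterion, where chance alone flags about 1 set in 20. Kmt2c was at 389 CPM in vehicle day 17 replicate 4 and at 252 to 266 CPM in the others, and Ash1l was at 227 CPM in the same library and at 153 to 160 CPM in the others. In entinostat day 10 replicate 4, Ash1l was at 192 CPM (others 165 to 169 CPM) and Kdm6b at 136 CPM (others 81.4 to 88.2 CPM). That library also had the lowest sum of receptor reads of its group, and the part of this in the 2 values was not tested. In entinostat day 17 replicate 2, Kmt2d was at 314 CPM (others 196 to 209 CPM) and Eed at 99.9 CPM (others 86.2 to 87.9 CPM). Kmt2d was low in vehicle day 10 replicate 4, at 443 CPM against 514 to 520 CPM. Dnmt1 was at 276 CPM in vehicle day 10 replicate 3 (others 245 to 250 CPM) and Kdm3a at 198 CPM in entinostat day 10 replicate 2 (others 173 to 176 CPM).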

How the results depend on the processing

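The number of members called for entinostat at day 10 was 6 in the main fit, 19 by limma-voom, 3 with the replicate block, 2 with the replicate block within each day, and 2 to 8 without each library in turn. At day 17 it was 21, and 13 with a minimum count of 50 or on genes above receptor reads, 8 with only the groups compared, 13 with the replicate block within each day, and 9 to 21 without each library. For vehicle over time it was 6, and 13 by limma-voom, 1 with library size alone and 0 to 12 without each library. For entinostat over time it was 18, and 29 by limma-voom and 13 to 26 without each library. For the difference between days it was 1, and 4 by DESeq2, 2 by limma-voom, RLE scaling or library size alone, 3 with a minimum count of 50 or on genes above receptor reads, and 1 to 2 without each library (2 without entinostat day 10 replicate 2, vehicle day 17 replicate 1 or entinostat day 17 replicate 3). In the comparisons other than day 10 the labels give no pairing by number either, and the replicate block gave 15 members at day 17, 6 and 16 between the days (vehicle, then entinostat) and 1 for the difference. Over genes of at least 16 CPM, same-numbered libraries were best matches between the entinostat groups for replicates 2 and 4 (correlation 0.233 and 0.198), but not for 1 and 3. Over all genes the calls without each library ran from 910 to 4151 and from 1946 to 3658 for entinostat at days 10 and 17, from 212 to 2699 and from 1748 to 2826 over time, and from 14 to 103 for the difference. Between the other alternatives they ran from 1160 to 6746, 2348 to 4899, 490 to 2804, 2026 to 3934 and 34 to 563. Leaving aside omitted libraries, the sign turned in some alternative for 14 of the 41 members at day 10 and for 4 at day 17. Between the days it turned for 12 members under vehicle, for 1 under entinostat and, in the test comparing both effects, for 4. Of all these 0 were called in the main fit. Among the DNA methylation and Polycomb genes, at day 10 these were Dnmt1 (0.066 with library size alone, 0.029 with a minimum count of 50, 0.019 on genes above receptor reads, 0.0026 with only the groups compared), Tet2 (0.029 with library size alone), Ezh1 (0.057, 0.019 and 0.0094 in the first 3 of these settings) and Ezh2 (0.095, 0.058, 0.048 and 0.033 in the 4, 0.012 with the receptor covariate, and -0.15 to 0.058 over omitted libraries, above 0 when vehicle replicate 1 of that day, at 0.048, or entinostat replicate 2, at 0.058, was the one omitted). At day 17 it was Eed (0.0070, 0.028 and 0.023 in the first 3, and -0.20 to 0.010 over omitted libraries). The main scaling puts the median of genes above receptor reads at -0.12 at day 10 and -0.17 at day 17, and library size alone at 0.04 and -0.02, which moves members near the threshold across it. Scaling was also computed anew in each fit on fewer genes or fewer libraries. In the fit on genes above receptor reads, their median was -0.0085 at day 10 and -0.00012 at day 17. Fewer genes tested or fewer libraries change the adjustment and the spread as well, and further causes were not tested. Depth limits Tet1 and Suv39h2 most, at means of 16.5 and 10.2 CPM with vehicle at day 10. Blocks within each day were not run for comparisons between days, nor the fit on only the groups compared for the difference, which uses all 4.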

Other observations

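The members are long genes. Their merged exons ran from 3425 to 20291 bases with a median of 8225, against 4783 for all tested genes above the level of receptor reads. Of the 18 members with at least 10000 bases, 2 rose and 11 fell with entinostat at day 17, where 19.8% of all genes of that length fell and their median log2 fold change was -0.10. Of the 23 members with at least 3000 but under 10000 bases, 3 rose and 5 fell, where 19.6% of genes of that length fell. The part of length in the member results was not tested.

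Among the 30 members with a RefSeq promoter window, CCAAT was found in 1 of the 4 that rose at day 17 and in 3 of the 9 that fell, and the E2F words in 0 of both, which draws no line between the 2 sets.

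The genes of DNA replication and mitosis moved over time as well. With entinostat 14 of 22 replication genes and 16 of 20 mitosis genes rose from day 10 to day 17, and with vehicle 1 and 6 did. Of all tested genes 3.26% rose over time with entinostat and 1.89% with vehicle, and the 1 replication gene with vehicle is near that share. Uhrf1 rose with entinostat over time by 1.41 ± 0.18 on the log2 scale (edgeR's quasi-likelihood test, adjusted p = 6.29e-05), while Dnmt1, its partner, differed by 0.26 ± 0.12 (adjusted p = 0.151).

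Markers of other cell types moved too. Of 9 conventional dendritic cell markers 4 fell with entinostat at day 10 and 5 at day 17, and their sum was 485 to 1194 CPM against 386 to 599.6 CPM and 1160 to 1685 CPM against 401 to 457 CPM. Of 5 neutrophil markers 4 rose at day 10, with sums of 2.05 to 3.92 CPM with vehicle and 11.2 to 90.8 CPM with entinostat. Of 8 markers of fibroblasts and endothelium 3 fell with entinostat at day 17 and 3 rose with vehicle over time, and their sum was 172 to 483 CPM with vehicle and 144 to 509.7 CPM with entinostat at day 10, and 331 to 1629 CPM against 225 to 523 CPM at day 17. The part of these cells in the member results was not tested.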
